A study of Mus musculus with 30 samples.

Results

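Expression of 8 mouse genes of the Ly6/uPAR family, Psca, Ly6k, Ly6d, Ly6a, Ly6c1, Ly6c2, Ly6e and Ly6g5b, was described in oral carcinoma models and in the immune cells of their tumours. The genes were chosen by name. They are 8 of the 55573 genes of the bulk RNA tables, and 4 of them (Ly6a, Ly6c1, Ly6c2 and Ly6e) were followed in single cells of the T, NK and myeloid classes. Family proteins carry a compact 3-finger fold held by disulphide bonds. Most are tethered to the outer face of the membrane by a glycosylphosphatidylinositol (GPI) anchor and have no cytoplasmic tail. In mice several are used as surface markers: the Ly6a product (Sca-1) marks haematopoietic stem cells and activated lymphocytes, and the Ly6c products mark inflammatory monocytes and part of the memory CD8 T cells.

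MOC1, MOC1E1 and MOC22 are mouse oral squamous carcinoma cell lines grown as tumours in C57BL/6J mice. How MOC1E1 was derived and whether it is 1 clone are not given in the sources used here. Bulk RNA was measured in 3 libraries each of untreated MOC1 tumours, untreated MOC1E1 tumours, cultured MOC1 cells and cultured MOC1E1 cells. The cultures were kept in medium with EGF, hydrocortisone and insulin, and the column names of all culture libraries carry the letters plusifng, which the labels do not explain. Whether interferon gamma was added is therefore not known. For single-cell RNA, tumour-bearing mice had been injected with an isotype control or with antibody to PD-1 or CTLA-4 on days 3, 6 and 9 after tumour inoculation. MOC1 gave 3 libraries of tumour-infiltrating T cells, MOC1E1 gave 3 libraries of tumour-infiltrating immune cells, and MOC22 gave 2 libraries of tumour-infiltrating T cells (isotype and anti-PD-1), with 1 library per model and antibody. Nothing in the labels says that the bulk libraries came from separate animals or cultures, so p-values measure the spread between these libraries alone.

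The single-cell libraries held 14766019 to 28466596 transcript counts (UMIs), and 28192 cells remained after filtering. Pairs of libraries shared between 0.252% and 0.944% of the smaller library's cell barcodes. The depth of the bulk libraries is unknown, since their values are TPM, a transcript abundance scaled for length and for the library total. Cultures matched their label, with the summed TPM of 8 carcinoma markers at 9575 to 12193 and that of 5 fibroblast markers at 0.97 or below. Tumours held the carcinoma markers at 16343 to 18067 together with fibroblast markers at 503 to 2889, and so contained other cells. In such bulk samples fewer cells of a type and less RNA per cell cannot be told apart.

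In the GRCm38.p6 annotation 7 of the genes lie within 397 kb of chromosome 15. In order they are Psca (chr15:74714839-74717065), Ly6d (chr15:74762056-74763567), Ly6k (chr15:74796874-74799968), Ly6e (chr15:74955025-74959904), Ly6a (chr15:74994877-74998031), Ly6c1 (chr15:75044018-75048920) and Ly6c2 (chr15:75108161-75112066). Ly6g5b lies apart from them, at chr17:35113944-35118558.

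Psca, Ly6k and Ly6d, the genes of the group known from epithelia and carcinomas, were lower in MOC1E1 than in MOC1 tumours, and the gap was widest for Psca. Psca encodes prostate stem cell antigen, a surface protein of stratified epithelia that many carcinomas carry. It stood at 462, 490 and 604 TPM in the MOC1 tumours and at 28.0, 29.0 and 33.1 TPM in the MOC1E1 tumours. The lowest MOC1 tumour was thus far above the highest MOC1E1 tumour. From a mean of 519 ± 75.2 TPM in MOC1 (SD, n = 3) the difference was -4.06 ± 0.12 (SE) in log2(TPM + 1) with a limma adjusted p of 4.73e-06.

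Ly6k, a cancer-testis antigen that acts in sperm together with Tex101, stood at 202, 227 and 231 TPM in MOC1 and at 12, 21.0 and 22.2 TPM in MOC1E1 tumours. The groups did not overlap, and the log2 difference was -3.55 ± 0.21 (SE, adjusted p = 8.86e-05). Ly6d, an adhesion antigen of keratinocytes that also marks B-lineage cells, stood at 1687, 1821 and 1846 TPM in MOC1 and at 544, 567 and 600 TPM in MOC1E1 tumours. Again no library of one line reached the range of the other, and the log2 difference was -1.64 ± 0.07 (SE, adjusted p = 3.14e-05).

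Ly6a, Ly6c1 and Ly6e were also lower in MOC1E1 tumours, with smaller differences, whereas Ly6c2 did not pass the test. Ly6a stood at 2665, 2729 and 2830 TPM in MOC1 tumours and at 909, 998 and 1632 TPM in MOC1E1 tumours (log2 difference -1.26 ± 0.20 SE, adjusted p = 0.00600). Ly6c1, which encodes one of the antigens that Ly6C antibodies bind, stood at 371, 381 and 415 TPM in MOC1 and at 110, 115 and 299 TPM in MOC1E1 tumours (-1.31 ± 0.34 SE, adjusted p = 0.0362). The MOC1E1 library numbered 3 was the high one for both genes. It also had the highest summed TPM of 30 interferon-induced genes, 18514 against 11035 and 11377 in the other MOC1E1 tumours. The same library held the lowest fibroblast marker sum of the tumours and the highest T cell marker sum (54.7 TPM over 5 genes), and the part of these in its Ly6a and Ly6c1 levels was not tested. Without that library the Ly6c1 difference was -1.78 (adjusted p = 4.13e-05), while leaving out any other tumour library took Ly6c1 past 0.05, to adjusted p values between 0.0845 and 0.112.

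Ly6e, which encodes the receptor of the placental fusogen syncytin-A and restricts several enveloped viruses, was among the most even genes of the group. It stood at 2607, 2715 and 2813 TPM in MOC1 and at 2097, 2131 and 2379 TPM in MOC1E1 tumours, a log2 difference of -0.30 ± 0.08 (SE, adjusted p = 0.0343). The groups did not overlap, but the call was lost when the TPM were rescaled by the median ratio between libraries (adjusted p = 0.117), without a filter on low values (adjusted p = 0.124) and without any of 5 of the 6 libraries. Ly6c2, the closest relative of Ly6c1 in the group, stood at 5.68, 11.4 and 17.2 TPM in MOC1 and at 5.08, 7.08 and 9.01 TPM in MOC1E1 tumours. These ranges overlapped, and the difference of -0.54 (95% interval -1.38 to 0.30, adjusted p = 0.334) was within the spread between libraries. Ly6g5b, a little-studied gene of the major histocompatibility complex region, was at 0.53 to 2.00 TPM in all tumours and did not reach the filter of 1 TPM in 3 libraries.

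In all, 6 of the 7 genes that passed the filter were called lower in MOC1E1 tumours and none higher. Of all 15125 genes tested, 18.6% were called, 11.9% as lower and 6.70% as higher, and the median difference over all of them was -0.04. Among 15 other Ly6/uPAR family genes tested, 10 were lower, 5 were not called and none was higher, with a median of -0.96. Lypd2 fell from a mean of 23.1 to 1.95 TPM, Lypd3 (C4.4A, a protein of suprabasal squamous epithelium) from 273 to 103 TPM, and Ly6g6e from 16.2 to 3.57 TPM. Of 22 genes of squamous differentiation, 11 were lower and none higher, among them Krt13, Tgm1 and Sprr3. The GPI anchor pathway, which builds the anchor that most family proteins need, gave 2 higher, 1 lower and 22 uncalled genes of 25. Among interferon-induced genes 2 of 30 were lower (Cd274 and Oasl1) and 28 were not called.

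Markers of other cells moved as well. Neutrophil markers were lower in MOC1E1 tumours for 7 of 8 genes tested, with sums of 22.6 to 72.0 TPM against 229 to 290 TPM in MOC1. Mast or basophil markers were lower for 3 of 3 genes tested, monocyte markers for 2 of 7 and macrophage markers for 2 of 8, with none higher. Of the Treg, endothelial, dendritic and plasma cell lists 1 gene each was lower. Of the T cell and fibroblast lists none of 5 genes each was called, and of the 8 carcinoma markers 2 were higher (Cdh1 and Krt5) and none lower. In the single-cell data of MOC1E1, neutrophil-like cells held Psca at 3.48 CPM (UMIs of a gene scaled to a common total per class and library) or below and listed Ly6k at 0. The MOC1 single-cell libraries were of T cells, and the part of the neutrophil and other cell marker differences in the level of any family gene was not tested.

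**Figure D1:**
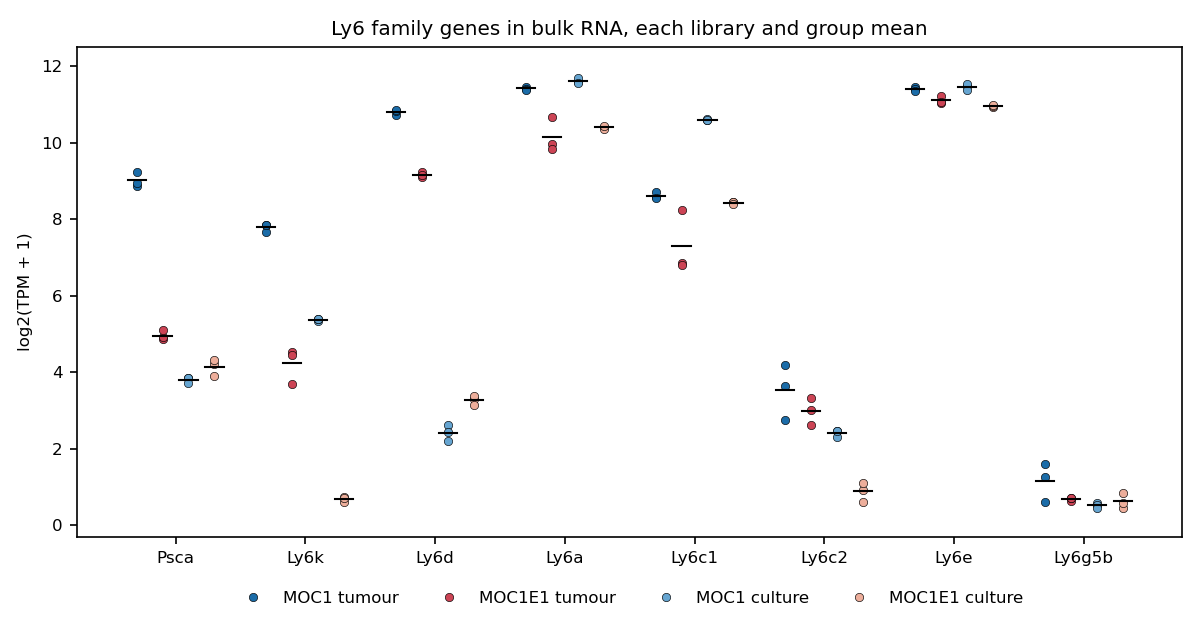
Expression of the 8 genes in each bulk library, as log2(TPM + 1) on the vertical axis, with 1 point per library and a line at each group mean (3 libraries per group). Psca and Ly6d are at 12.1 to 18.8 and at 3.56 to 9.35 TPM in cultures and rise in tumours, most in MOC1, whereas Ly6a and Ly6e stay above 900 TPM in every library.

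Cultured cells showed another order of the lines for Psca and Ly6d. Psca stood at 12.1, 13.3 and 13.5 TPM in cultured MOC1 and at 13.8, 17.5 and 18.8 TPM in cultured MOC1E1, a log2 difference of 0.33 ± 0.11 (SE, adjusted p = 0.0432). Ly6d stood at 3.56, 4.38 and 5.16 TPM in MOC1 and at 7.85, 8.76 and 9.35 TPM in MOC1E1 cultures (0.85 ± 0.13 SE, adjusted p = 0.00106). Both were therefore slightly higher in MOC1E1 in culture, without overlap, and far lower in MOC1E1 in tumours. The Psca call in culture was lost without a filter on low values (adjusted p = 0.102) and when any of 5 of the 6 libraries was left out.

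The other genes kept the tumours' direction in culture. Ly6k stood at 39.4, 40.7 and 40.8 TPM in MOC1 and at 0.510, 0.630 and 0.660 TPM in MOC1E1 cultures, the widest line difference of the group at -4.69 ± 0.08 (SE, adjusted p = 6.60e-08). Ly6c1 stood at 1538, 1546 and 1556 TPM in MOC1 and at 333, 347 and 351 TPM in MOC1E1 (-2.17 ± 0.04 SE, adjusted p = 1.14e-07). Ly6c2 was at 3.90, 4.45 and 4.54 TPM against 0.530, 0.890 and 1.15 TPM (-1.52 ± 0.15 SE, adjusted p = 1.32e-04). Library values of one line varied by far less than the distance between lines for all of these genes. Ly6a was at 2991 to 3273 against 1307 to 1391 TPM (-1.20, adjusted p = 2.26e-06), close to its difference in tumours. Ly6e was at 2672 to 2979 against 1962 to 2034 TPM (-0.50, adjusted p = 1.97e-04).

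All 7 tested genes were called in culture, 5 lower and 2 higher in MOC1E1. The background was high, with 53.4% of 13975 genes called, 33.2% lower and 20.2% higher, so that a share this large of called genes is not particular to the group. Interferon-induced genes were lower in MOC1E1 cultures for 28 of 30 genes, higher for 1 and uncalled for 1, with a median of -1.06 against -0.06 over all genes, and Cxcl9, Ifit3 and Ifit2 had the smallest p-values. Ly6a, Ly6c1 and Ly6e are known to be induced by interferons, and the part of this list's difference in theirs was not tested. Of the other family genes 5 of 9 tested were lower and none higher, among them Lypd3, Lypd6b and the urokinase receptor gene Plaur. GPI anchor genes went both ways, with 5 higher and 11 lower of 25.

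**Figure D2:**
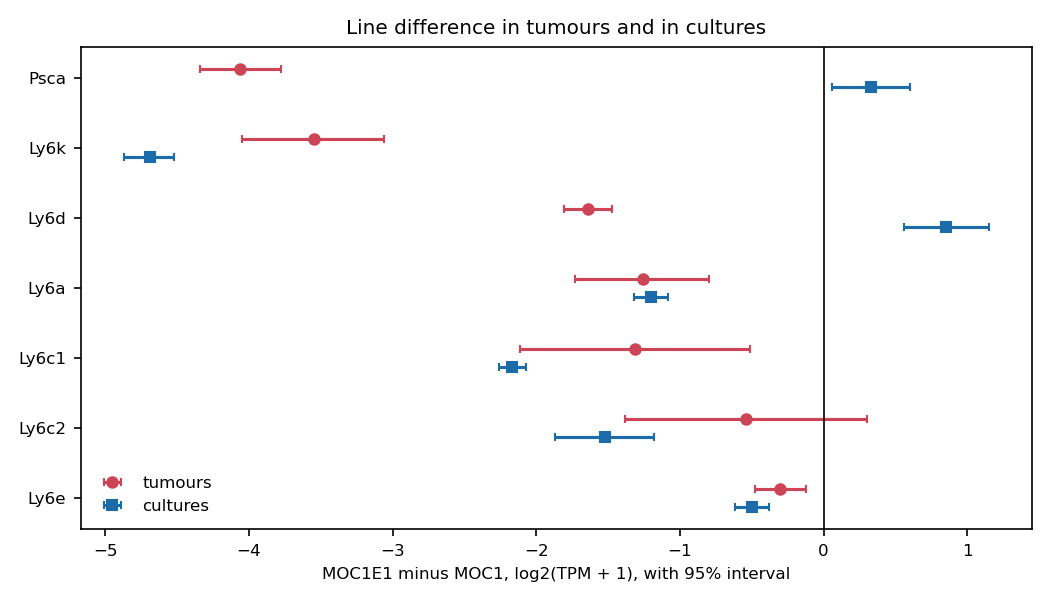
Difference between the lines (MOC1E1 minus MOC1, log2(TPM + 1), horizontal axis) for each tested gene in tumours (circles) and in cultures (squares), with 95% intervals from limma. Psca lies at -4.06 in tumours and 0.33 in cultures and Ly6d at -1.64 and 0.85, while the Ly6a values of -1.26 and -1.20 nearly coincide.

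The size of the line difference itself depended on the setting for 3 genes. The line difference in tumours minus that in culture was -4.39 ± 0.18 (SE) for Psca, with a limma adjusted p of 1.81e-07. It was -2.50 ± 0.14 for Ly6d (adjusted p = 1.25e-06) and 1.14 ± 0.25 for Ly6k (adjusted p = 0.00865). The positive Ly6k value says that its large deficit in MOC1E1 was smaller in tumours than in culture. For Ly6a the difference of differences was -0.06 (95% interval -0.57 to 0.44, adjusted p = 0.888), for Ly6c1 0.86 (-0.01 to 1.73, adjusted p = 0.174), for Ly6c2 0.98 (adjusted p = 0.150) and for Ly6e 0.20 (adjusted p = 0.165). None of those 4 passed the test. Without the MOC1E1 tumour library 3, the Ly6a value was -0.32 (adjusted p = 0.0204) and the Ly6c1 value 0.39 (adjusted p = 0.00557), so that library decides on which side of the threshold these genes fall. Over all 16813 genes 16.8% were called, 1717 higher (10.2%) and 1111 lower (6.61%), and after rescaling by the median ratio 1424 higher and 1573 lower. Of the other family genes 8 of 16 had a lower value and none a higher one, led by Lypd2, Ly6g6e and Pinlyp.

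Psca, Ly6k and Ly6d were higher in tumours than in cultures of the same line, Ly6c1 was lower, and Ly6a and Ly6e were nearly level. In MOC1 the tumour minus culture difference was 8.39 ± 0.11 (SE) for Ly6d, from a mean of 4.37 to 1785 TPM, and 5.21 ± 0.11 for Psca, from 13 to 519 TPM (adjusted p = 2.96e-09 and 1.34e-08). In MOC1E1 it was 5.89 for Ly6d and 0.82 for Psca. Ly6d thus rose strongly in both lines, and Psca mainly in MOC1. Ly6k rose by 2.42 in MOC1 and by 3.55 in MOC1E1, from a mean of 0.600 to 18.4 TPM in the latter. Ly6c1 fell by 1.99 in MOC1, from a mean of 1547 to 389 TPM, and by 1.13 in MOC1E1 (adjusted p = 7.16e-08 and 0.0206). The MOC1E1 call was lost without any 1 of 5 of the 6 libraries (adjusted p 0.0605 to 0.0756) and held without tumour library 3. Ly6c2 rose by 1.12 and 2.10. So Ly6c1 and Ly6c2 had opposite signs in both lines.

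Ly6a differed by -0.18 in MOC1 (adjusted p = 0.0268, and 0.386 after rescaling by the median ratio) and by -0.25 in MOC1E1 (adjusted p = 0.293). Under the alternatives the MOC1E1 value ran from -0.51 to -0.09, with limma adjusted p values from 2.94e-04 to 0.704. Its tumour library 3 stood at 1632 TPM, above the MOC1E1 cultures, and the others at 909 and 998 TPM, below them. Ly6e differed by -0.06 and 0.14, which did not pass the test. Called genes numbered 4 higher and 2 lower in MOC1, where 78.8% of all genes were called (40.3% higher, 38.5% lower), and 4 higher and 1 lower in MOC1E1, where 79.2% were called (42.2% higher, 37.0% lower). Tumours and cultures were tabulated separately, and only the culture columns carry the letters plusifng. The setting therefore cannot be told apart from the making of the 2 tables, nor from interferon gamma if it was added to the cultures. All 8 macrophage, 5 endothelial, 5 fibroblast and 5 T cell markers were higher in tumours of both lines. In cultures the macrophage markers summed to 10.8 TPM or below and the T cell markers to 3.54 TPM or below. Not every list rose in tumours. Dendritic markers summed to 222 to 285 TPM in cultures and to 92.8 to 116 TPM in tumours. Of the NK markers the 2 genes tested were lower in tumours of both lines. The part of other cells in the differences was not tested. Interferon-induced genes were higher in MOC1 tumours than in MOC1 cultures for 3 of 30 genes and lower for 21, and in MOC1E1 for 11 and 6.

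Genes with the most similar profile over the 12 bulk libraries were found by the mean absolute difference of centred log2(TPM + 1) among 15157 genes. For Psca they were 2300002M23Rik (0.21), Nccrp1 (0.31) and Cox8b (0.34). For Ly6c1 they were Upp1 (0.16), Ifi205 (0.25) and Pthlh (0.27). Ly6d was matched by Mcpt2 (0.36), Thy1 (0.38) and Calml3 (0.40), Ly6k by Pglyrp1 (0.48), Gabrp (0.66) and Ifitm1 (0.67), and Ly6c2 by Psd4, Phf11b (both 0.22) and Casd1 (0.23). Several of these, such as the mast cell protease gene Mcpt2 and the T cell and fibroblast antigen gene Thy1, are made by cells other than carcinoma cells.

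In single cells the carcinoma-associated genes were found together in a small group of cells with carcinoma markers. A cluster of 39 cells in the MOC1 libraries was led by Krt14, Psca, Krt6a and Krt5, together with the matrix genes Sparc, Col3a1 and Col1a1, and only 17.9% of its cells had a UMI of Cd3e. There Psca was at 3587, Ly6d at 1269, Ly6c1 at 611 and Ly6k at 117 CPM, while Ly6c2 was at 5.58 CPM. In the named T cell classes of MOC1, Psca and Ly6d stayed at 0.522 CPM or below in every library. Ly6c1 in that cluster exceeded its level in every T, NK and myeloid class, and with only 39 cells it is given as a description. Ly6d was also high in the B-like cells of MOC1E1, at 2246 CPM with isotype and 2440 CPM with anti-PD-1.

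Ly6c1 and Ly6c2 are near copies, and their promoters are shown because the pair differed so widely between cell classes. Each window below covers 250 bases on the minus strand of GRCm38.p6, at chr15:75048838-75049087 for Ly6c1 and chr15:75111972-75112221 for Ly6c2. It lies directly before the most upstream start listed for the gene among the promoters used. The genes as placed above reach beyond these starts, to 75048920 and 75112066, so each window also holds bases of the annotated gene. Letters are lower case because neither searched motif occurred.
Ly6c1: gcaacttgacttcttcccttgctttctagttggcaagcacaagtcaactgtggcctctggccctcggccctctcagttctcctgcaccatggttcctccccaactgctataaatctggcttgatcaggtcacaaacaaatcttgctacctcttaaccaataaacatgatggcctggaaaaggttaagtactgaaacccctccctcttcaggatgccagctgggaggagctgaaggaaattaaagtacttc
Ly6c2: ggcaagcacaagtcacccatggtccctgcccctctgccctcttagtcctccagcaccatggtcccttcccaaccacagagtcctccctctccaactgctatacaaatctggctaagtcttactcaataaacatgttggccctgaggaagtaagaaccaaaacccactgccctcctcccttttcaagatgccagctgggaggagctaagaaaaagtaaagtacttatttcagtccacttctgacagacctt
Over 209 aligned bases 170 were identical (81.3%). The interferon-gamma-activated site TTCNNNGAA and the core of the interferon-stimulated response element, GAAA, any 2 bases and GAAA, were searched on both strands. They occur in 7.02% and 2.98% of the 32851 promoter windows of the same length, and in neither of these, which says only that the letters are not in these windows. Reads of such near copies can be split or lost in counting, so that the levels of the pair are less certain than those of the other genes.

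Ly6c2 was highest in monocyte-like cells in MOC1E1, the model with myeloid cells, and low in Treg-like and CD4 T-like cells. Of the CD8 T-like, CD4 T-like and Treg-like classes it was highest in CD8 T-like cells of every library. Where 3 values follow each other below, they are in the order isotype, anti-PD-1, anti-CTLA-4. In MOC1E1, monocyte-like cells held 1804, 1933 and 2517 CPM. Treg-like cells, the class led by the regulatory T cell gene Foxp3, held 73.8, 80.8 and 130 CPM. The ranges over the 3 libraries did not overlap. CD8 T-like cells lay between, at 424, 470 and 838 CPM, below macrophage-like cells in each library (847, 551 and 1260 CPM), and NK-like cells were at 298, 222 and 261 CPM. A T cell cluster with Id3, Tcf7, Klra6 and Trdc among its leading genes, which no marker list could name, held 1302, 1333 and 1476 CPM. In MOC1, CD8 T-like cells held 478 to 1488 and Treg-like cells 94.8 to 236 CPM, and in MOC22 343 to 359 and 48.1 to 49.8 CPM.

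Ly6c1 showed another pattern, at 5.54 CPM or below in CD8 T-like cells and at 4.95 CPM or below in NK-like, monocyte-like, macrophage-like, neutrophil-like and dendritic-like cells. Its highest T cell level was in the CD4 T-like cells of the MOC22 isotype library, at 226 CPM (95% Poisson interval 211 to 241, counting error only), where Ly6c2 was at 4.55 CPM. Those cells came mostly from 1 cluster of 693 isotype cells led by Ly6c1, Igfbp4, Ccr7 and Lef1. The order of the pair was therefore reversed between that class and the CD8 T-like cells of the same library, which held Ly6c1 at 1.38 and Ly6c2 at 359 CPM.

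Ly6a was highest in Treg-like cells and lowest in NK-like cells of each MOC1E1 library, and macrophage-like cells came next to Treg-like cells except with anti-CTLA-4. In MOC1E1, Treg-like cells held 2573, 2725 and 2170 CPM and macrophage-like cells 2037, 2685 and 1089 CPM. NK-like cells held 7.58, 11 and 20.1 CPM, and 2.25% to 3.88% of them had a Ly6a UMI at a median depth of 3192 to 3768 UMIs. The share was 2.16% to 2.56% after thinning to 2000 UMIs. Whether it differs from the level of free RNA was not tested. Treg-like cells, at 3657 to 4626 UMIs, had 92.8% to 95.1% of cells with a Ly6a UMI. CD4 T-like cells (956, 1547 and 1463 CPM) lay above CD8 T-like cells (345, 780 and 1280 CPM) in each library, and the ranges of these neighbours overlapped between libraries. The order Treg-like, CD4 T-like, CD8 T-like held in all 3 MOC1 libraries too.

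Ly6e was present in every class and varied least. In MOC1E1 it ran from 609 to 741 CPM in NK-like cells to 3003 to 3556 CPM in monocyte-like cells. Treg-like cells held 2312 to 2950 CPM there, 2688 to 2764 CPM in MOC1 and 2448 to 2876 CPM in MOC22, above the CD8 T-like cells of the same libraries in every case. Over 42 sums of a class in a library, the profile most like that of Ly6e was that of Phyh (mean absolute log2 difference 0.34), then Ubl3 (0.38) and Ahcyl2 (0.41). For Ly6a the closest was Mif4gd (0.80), for Ly6c2 Lgals3 (0.95) and for Ly6c1 Adk (1.16), which are much looser matches.

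Myeloid subsets differed in the combination of Ly6c2 and Ly6a. Among the monocyte-like clusters of MOC1E1, that led by F13a1, Lyz2 and Chil3 held Ly6c2 at 1884, 1982 and 2825 CPM and Ly6a at only 20.6, 43.7 and 77.1 CPM. The cluster led by Mrc1, Ccl7 and Vcan held both, with Ly6c2 at 2155 and 2986 and Ly6a at 815 and 1165 CPM (isotype, anti-PD-1). A cluster led by Ace, Ear2 and Treml4, genes of patrolling monocytes, held less Ly6c2 (846 and 1034 CPM) and little Ly6a (125 and 167 CPM). Macrophage-like cells led by Mmp12 and Ccl8 held Ly6a at 621 to 1631 CPM and Ly6c2 at 11.3 to 128 CPM. The clusters were built without Ly6 family genes, yet a cluster is chosen from the same cells, so these are descriptions.

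**Figure D3:**
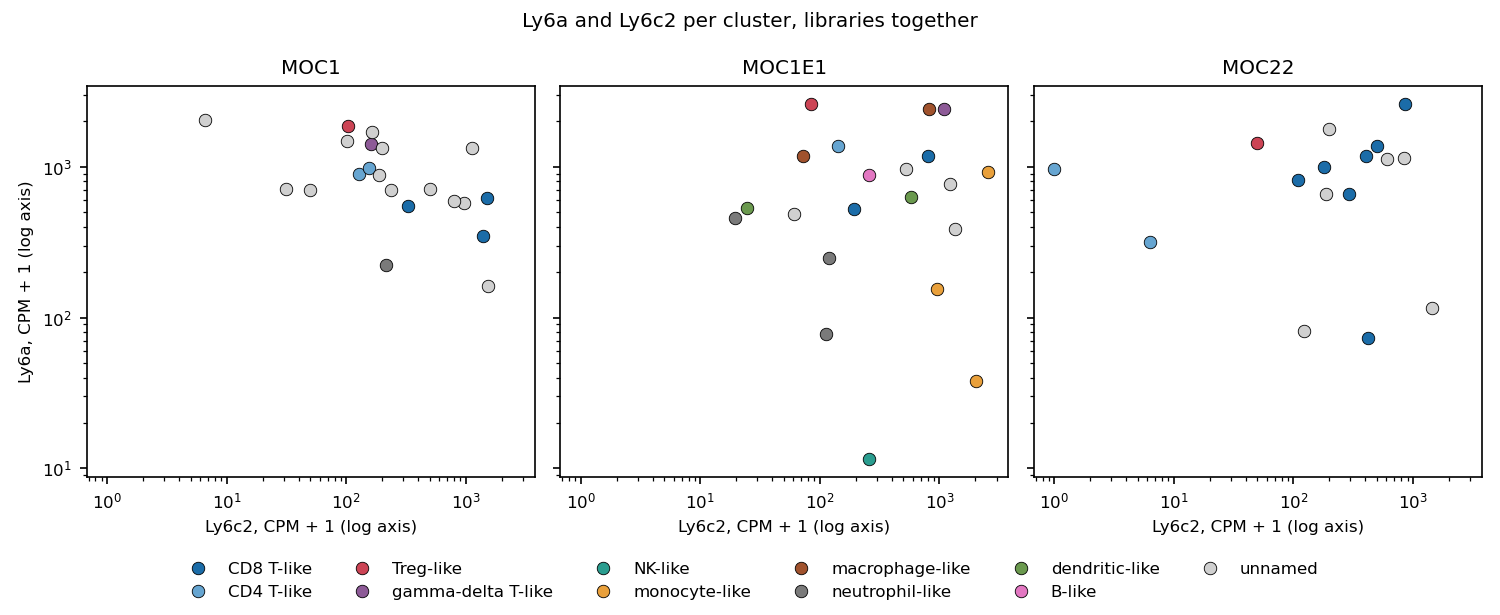
Ly6a (vertical axis) against Ly6c2 (horizontal axis), both as CPM + 1 on log axes, with 1 point per cluster over all libraries of a model colours for the named classes and grey for unnamed or mast cell clusters. In MOC1E1 the NK-like cluster lies lowest in Ly6a, at 10.5 CPM, and the F13a1-led monocyte-like cluster combines 2008 CPM of Ly6c2 with 36.9 CPM of Ly6a.

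With anti-PD-1, Ly6a was higher than with isotype in every named class and every cluster that had at least 50 cells in both libraries of a model. These comparisons rest on 1 library per group and have no test. In CD8 T-like cells Ly6a went from 305 to 529 CPM in MOC1, from 345 to 780 CPM in MOC1E1 and from 231 to 1246 CPM in MOC22. The 68 isotype cells of MOC1E1 came from clusters 4 and 17 (42 and 26 cells), the anti-PD-1 cells mainly from cluster 17 (289 of 343), and neither cluster had enough isotype cells to be compared by itself. In CD4 T-like cells it went from 895 to 1156 CPM in MOC1 and from 956 to 1547 CPM in MOC1E1. Treg-like cells showed smaller differences, from 1742 to 2264, from 2573 to 2725 and from 1167 to 1845 CPM. In the myeloid classes of MOC1E1 it went from 148 to 460 CPM in neutrophil-like, 450 to 794 in dendritic-like, 2037 to 2685 in macrophage-like and 216 to 246 CPM in monocyte-like cells. The direction was thus the same in 14 of 14 classes, including NK-like cells at 7.58 and 11 CPM. In the larger dendritic-like cluster 27.2% of cells had a Cd3e UMI, and the part of T cell RNA in its Ly6a was not tested.

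The clusters, which are finer than the classes, gave the same direction. Ly6a was higher with anti-PD-1 in 33 of 33 clusters with at least 50 cells in both libraries, by log2 ratios of 0.07 to 1.06 in the 11 of MOC1, 0.06 to 2.92 in the 14 of MOC1E1 and 0.05 to 2.06 in the 8 of MOC22. Of 1728 genes with at least 10 UMIs in each of these comparisons, 4 were higher in every cluster (0.231%), namely Tpi1, Fxyd5, Ly6a and AW112010, and none was lower in every cluster. For the other genes of the group the counts were 25 of 32 clusters for Ly6c2, 19 of 33 for Ly6e and 4 of 9 for Ly6c1. The clusters of a model share their libraries, so the 33 comparisons are only 3 library pairs. When the 2 cycling clusters of MOC1 were added together Ly6a was lower with anti-PD-1 (1260 and 1073 CPM). Their mix differed between isotype and anti-PD-1, with 234 and 68 cells in cluster 5 and 34 and 131 in cluster 15. The part of this mix was not tested. Within cluster 5, the one that could be compared, Ly6a was higher (1392 and 1907 CPM).

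With anti-PD-1 the summed interferon-induced list was also higher in 10 of 11 clusters of MOC1, 12 of 14 of MOC1E1 and 6 of 8 of MOC22. The median log2 ratios were 0.21, 0.17 and 0.12. With anti-CTLA-4 the list and Ly6a went apart in MOC1, where the list was higher in 6 of 8 clusters and Ly6a in 3 of 8. In MOC1E1 each was higher in 5 of 8. The part of the list in the Ly6a differences was not tested. The carcinoma marker list, a measure of free RNA from carcinoma cells alone, was higher with anti-PD-1 in 5 of 11, 6 of 11 and 4 of 8 clusters. It does not measure free RNA of immune cells rich in Ly6a, such as Treg-like and macrophage-like cells, whose part was not tested. Over 70 values from other filters, doublet settings, clusterings and thinning, Ly6a was higher in 69. The exception was Treg-like cells of MOC1E1 with doublets kept, at a log2 ratio of -0.05.

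**Figure D4:**
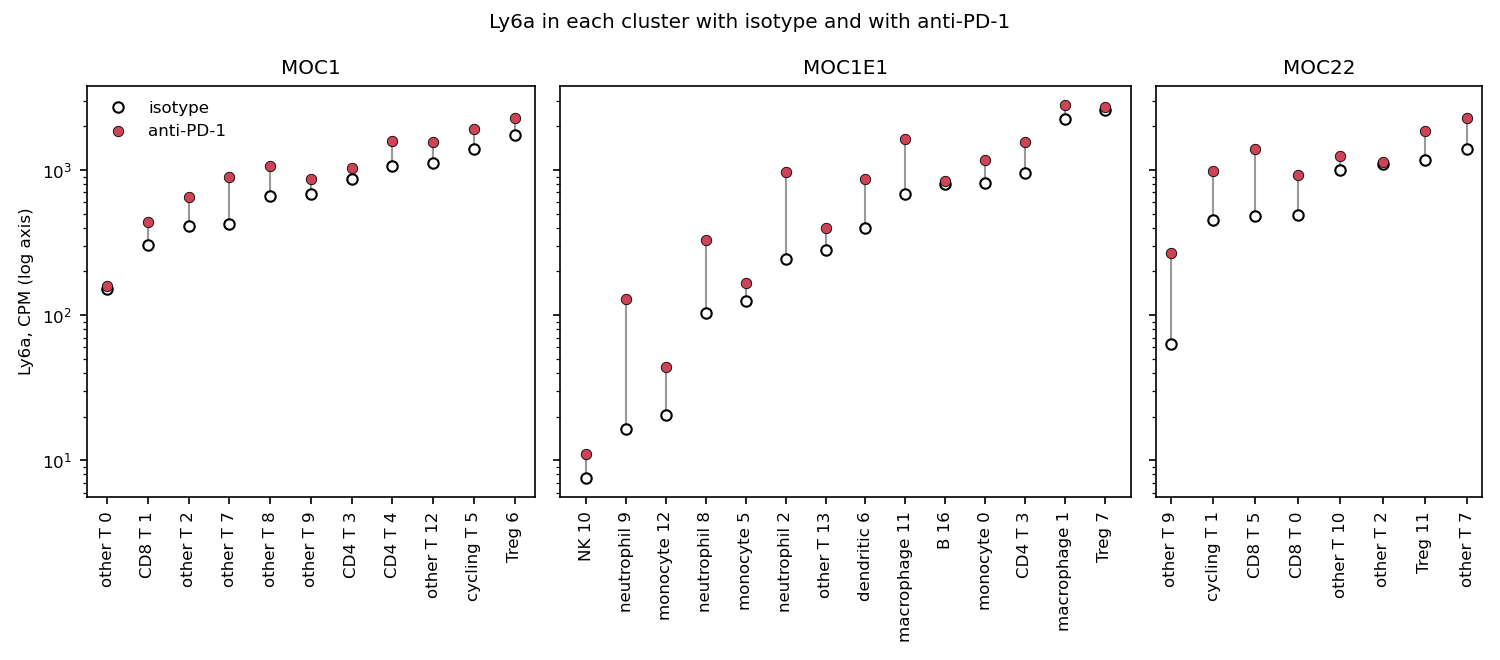
Ly6a (CPM, log axis) with isotype (open points) and anti-PD-1 (filled points) in each cluster with at least 50 cells in both libraries, ordered by the isotype level within each model. The filled point is above the open one in 33 of 33 clusters, from a log2 ratio of 0.05 to 2.92.

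Past 2-fold, with at least 10 UMIs in 1 of the libraries, were 2 of the 8 member values of MOC22, Ly6a in CD8 T-like cells (log2 ratio 2.42) and Ly6c1 in Treg-like cells. The latter was at 101 CPM with isotype and at 5.75 CPM with anti-PD-1, from 3 UMIs (95% Poisson interval 1.19 to 16.8). Over all genes 13.2% and 10.2% were past 2-fold in these classes. The CD8 T-like cells of the MOC22 libraries were held by different clusters. Of the isotype cells 754 of 1105 belonged to a cluster with Ly6a at 66.3 CPM, whereas the anti-PD-1 cells came mainly from clusters 5 and 6, at 1383 and 1028 CPM. Within cluster 5 alone Ly6a went from 481 to 1383 CPM and within cluster 0 from 490 to 915 CPM, log2 ratios of 1.52 and 0.90. The class difference was therefore larger than that within either cluster.

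In MOC1E1 with anti-PD-1, 5 of 30 values were past 2-fold. They were Ly6a in CD8 T-like and neutrophil-like cells (log2 ratios 1.18 and 1.63, with 12.4% and 9.56% of all genes past 2-fold) and Ly6c2 in CD4 T-like cells (86.1 and 258 CPM, 5.39%). The others were Ly6c1 in Treg-like cells (12.1 and 3.88 CPM, 4.76%) and Ly6c2 in B-like cells (15.8 and 455 CPM, 17.1%). The Ly6a value of CD8 T-like cells was 0.69 to 1.05 under 5 alternatives and past 2-fold in 1 of them. The Ly6c1 value rests on 12 and 6 UMIs and was -2.93 to -0.13. In the other classes 1.77% of all genes (NK-like), 1.34% (monocyte-like), 3.92% (macrophage-like) and 5.00% (dendritic-like) were past it. The B-like value rests on 76 and 66 cells of a cluster in which 14.7% of cells had a Cd3e UMI, and the part of other cells in it was not tested. In neutrophil-like cells the Ly6a difference was seen in all 3 clusters, from 243 to 960, from 103 to 329 and from 16.4 to 130 CPM. These cells were shallow, at 1367 and 1420 UMIs per cell in the median.

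With anti-CTLA-4 the direction of Ly6a depended on the class. In MOC1E1 it was higher than with isotype in CD8 T-like cells (345 and 1280 CPM) and CD4 T-like cells (956 and 1463 CPM). It was also higher in neutrophil-like cells (148 and 262 CPM) and, from 15 and 9 UMIs, in NK-like cells (7.58 and 20.1 CPM). It was lower in macrophage-like cells (2037 and 1089 CPM, at a median of 6398 and 2520 UMIs per cell), monocyte-like cells (216 and 102 CPM) and dendritic-like cells (450 and 189 CPM). Treg-like cells were lower by less (2573 and 2170 CPM, 58 treated cells). In MOC1 it was higher in CD8 T-like cells (305 and 619 CPM), close in CD4 T-like cells (895 and 851 CPM) and lower in Treg-like cells (1742 and 984 CPM, 85 treated cells). The MOC1 CD8 T-like cells of the libraries came from different clusters, 309 of 386 from cluster 1 with isotype and 1558 of 1712 from cluster 10 with anti-CTLA-4. Within cluster 1, the only CD8 T-like cluster that could be compared, Ly6a was lower with anti-CTLA-4 (305 and 190 CPM), as it was within both CD4 T-like clusters (863 and 500, 1070 and 884 CPM). In cluster 2, left unnamed though Cd8a was in 84.2% of its cells, Ly6a was higher (409 and 748 CPM). Of the 8 MOC1 clusters compared, Ly6a was higher in 3 and lower in 5. Over MOC1 and MOC1E1 together, Ly6a was higher with anti-CTLA-4 in 5 of 11 classes. With anti-PD-1 it was higher in 3 of 3 classes of MOC1 and in 9 of 9 of MOC1E1, there with B-like cells included. Both antibodies were compared with the same isotype library of a model. Within the F13a1-led monocyte-like cluster Ly6a was higher with anti-CTLA-4 (20.6 and 77.1 CPM), opposite to the whole class. The 3 clusters held similar shares of the class in both libraries (388, 130 and 98 of 616 isotype cells, 87, 30 and 25 of 142 anti-CTLA-4 cells), and the other two had under 50 treated cells and were not compared.

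Ly6c2 and Ly6c1 also differed with anti-CTLA-4. Ly6c1 in CD4 T-like cells was 12.9 CPM with isotype and 1.41 CPM with anti-CTLA-4 in MOC1, and 30.2 and, from 1 UMI, 0.582 CPM (95% Poisson interval 0.0147 to 3.24) in MOC1E1, while with anti-PD-1 it was 22.1 and 29.5 CPM. The anti-CTLA-4 values were the lowest of the 3 libraries in both models. In MOC1 the CD4 T-like cells came mainly from cluster 3 with isotype (489 of 573 cells) and from cluster 4 with anti-CTLA-4 (814 of 899). Past 2-fold were 4 of 12 member values in MOC1, namely Ly6a and Ly6c1 in CD8 T-like cells (log2 ratios 1.02 and -1.86), Ly6c1 in CD4 T-like cells (-2.52) and Ly6c2 in Treg-like cells (1.30). The Ly6c1 value of CD8 T-like cells was 0.71 when Ly6 genes took part in the clustering, and the Ly6c2 value of Treg-like cells was -0.22 with doublets kept and -0.06 with Ly6 genes in the clustering, so neither direction is firm. The shares of all genes past it were 11.6% in CD8 T-like, 8.62% in CD4 T-like and 16.2% in Treg-like cells. In MOC1E1 they were 7 of 26. They were Ly6a in CD8 T-like (1.89), monocyte-like (-1.07) and dendritic-like cells (-1.25) and in NK-like cells (1.30, from 9 and 15 UMIs), Ly6c1 in CD4 T-like cells (-4.30), and Ly6c2 and Ly6e in neutrophil-like cells (1.98 and -1.09). Under the alternatives the Ly6a value was -1.52 to -0.03 in monocyte-like cells, with the smallest size for classes from single transcripts, and -1.25 to -0.44 in dendritic-like cells. In CD8 T-like cells it was 1.28 to 1.63, below the value reported, and in NK-like cells 0.23 to 5.00. Over all genes 19.0% were past 2-fold in CD8 T-like, 8.08% in monocyte-like, 16.5% in dendritic-like and 10.3% in NK-like cells. The shares were 11.6% in CD4 T-like, 39.2% in neutrophil-like, 13.2% in Treg-like and 15.3% in macrophage-like cells. Neutrophil-like cells, with the highest background, held Ly6e at 1495 CPM with isotype and 701 CPM with anti-CTLA-4, and the latter had a median of 968 UMIs per cell. The median log2 ratio over all tested genes was -0.58 in this class.

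MOC1 CD8 T-like cells held Ly6c2 at 1088 CPM with isotype (95% Poisson interval 1043 to 1135, counting error only), 478 CPM with anti-PD-1 (461 to 496) and 1488 CPM with anti-CTLA-4 (1465 to 1510). The anti-PD-1 value was the one member value past 2-fold of the 12 in that comparison, where 9.04% of all genes were past it in CD8 T-like, 3.01% in CD4 T-like and 1.54% in Treg-like cells. Under 5 alternatives its log2 ratio was -1.34 to -0.37, past 2-fold in 1 of them. The 3 libraries drew their cells from different clusters. Of the 825 anti-PD-1 cells 545 belonged to a cluster led by Prf1, Lag3 and Gzma with Ly6c2 at 198 CPM, and of the 1712 anti-CTLA-4 cells 1558 belonged to a cluster with 1531 CPM. In the cluster shared by isotype and anti-PD-1 cells, led by Igfbp4 and Dapl1, Ly6c2 was 1313 and 1627 CPM, the other direction. Differences also stood within the other clusters, at 198 and 1180 CPM with anti-PD-1 and anti-CTLA-4 in the Prf1-led cluster and at 744 and 1531 CPM in the one that held most anti-CTLA-4 cells. Cluster 2, left out of the class though Cd8a was in 84.2% of its cells, went the way of the class with anti-PD-1. Its Ly6c2 was 1047 CPM with isotype and 855 CPM with anti-PD-1.

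The MOC1 libraries carry 4 hashtags each, whose meaning the labels do not give, so their spread shows how far a library's parts differ and is no replicate error. Ly6c2 in CD8 T-like cells ran from 1064 to 1127 CPM over the isotype hashtags, from 405 to 695 over the anti-PD-1 ones and from 1015 to 1824 for anti-CTLA-4. The anti-PD-1 range was apart from both others. Ly6a in CD8 T-like cells ran from 231 to 433, from 421 to 653 and from 563 to 664 CPM, so that isotype and anti-PD-1 overlapped. In Treg-like cells it ran from 1576 to 1882, from 2137 to 2455 and, over 3 hashtags, from 864 to 1067 CPM, with no overlap. In CD4 T-like cells the isotype range of 759 to 1114 CPM overlapped that of anti-PD-1, 942 to 1373 CPM.

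**Figure D5:**
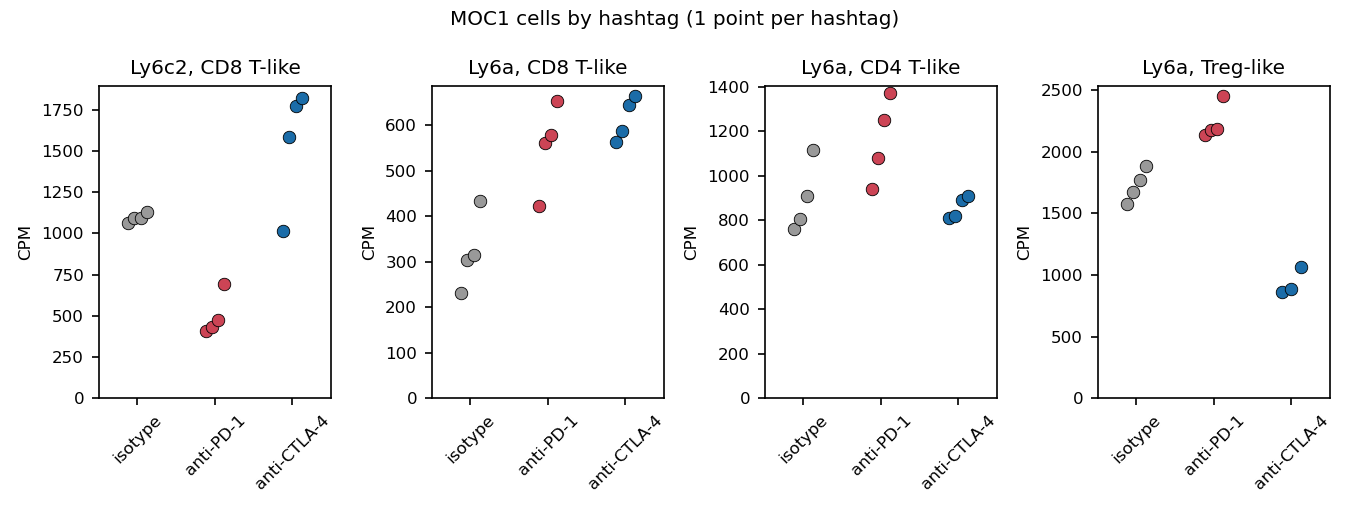
CPM of Ly6c2 and Ly6a in 3 MOC1 T cell classes, with 1 point per hashtag of each of the 3 libraries. The anti-PD-1 points for Ly6c2 in CD8 T-like cells, 405 to 695 CPM, lie below all others, and the Ly6a points of Treg-like cells form 3 separate ranges.

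Ly6g5b, low in bulk RNA, was found in T cells of single-cell libraries. In CD8 T-like cells it was at 54.7 and 67.8 CPM in MOC22 with isotype and anti-PD-1, at 11.1, 20.8 and 27.5 CPM in MOC1 and at 7.37, 22.1 and 41.8 CPM in MOC1E1. Gamma-delta T-like cells held 63.7 CPM in MOC1 and 127 CPM in MOC1E1 with isotype. NK-like, monocyte-like and macrophage-like cells were at 1.33 CPM or below. The MOC1E1 isotype value of CD8 T-like cells rests on 4 UMIs. Within MOC22 cluster 5, which Ly6g5b led by fold, it was lower with anti-PD-1 (229 and 123 CPM), opposite to the class. In MOC1 it was lower in 7 and higher in 2 of 9 clusters with anti-PD-1. With anti-CTLA-4 it was lower in 5 and higher in 2 of 7. In MOC1E1 it was higher in 2 of 3 clusters with anti-PD-1 and in the 1 compared with anti-CTLA-4.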

How the data were processed

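Bulk RNA tables hold TPM made by the authors, and single-cell tables hold deposited UMI counts per gene and cell. Cell Ranger 3.0.2, Trimmomatic 0.36, kallisto 0.46.0, Seurat and DESeq2 are named in the submitters' processing notes, as are builds mm10 and GRCh38, whose roles are not given. Libraries were made with a standard mRNA kit and a 5' single-cell kit, per the labels' protocols. The genes and lists were chosen with earlier results of these data known.

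Bulk gene identifiers were matched to symbols for 99.7% of rows. Genes at 1 TPM or more in at least 3 libraries of a comparison were tested with limma 3.58.1 (trend) in R 4.3.3 on log2(TPM + 1), with Benjamini-Hochberg adjustment over all tested genes and calls at an adjusted p of 0.05 or less. A log2 difference on this scale understates changes of low genes. On simulated data 195 of 200 changed genes were recovered with 12 false calls for the tumours, and 195 with 10 for the cultures. How recovery depends on the size of a difference or on the level of a gene was not tested. These counts therefore give no recovery rate for small differences or low genes.

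A cell was kept with 300 detected genes or more if mitochondrial UMIs made up 10% or less of its total. The cells with the highest doublet scores, 0.8% of a library per 1000 cells, were removed, a rule set after seeing the data. Cells were clustered per model with scanpy 1.11.5 (2000 variable genes, 30 components, resolution 1) without Ly6 family genes, and named from marker lists. UMIs were summed per class and library, at 50 cells or more, as CPM with exact Poisson 95% intervals, which cover counting error only. Ratios are of CPM + 1, and 2-fold calls need 10 UMIs in 1 library. All 8 genes were named in the bulk comparisons, and of each list the 3 called genes with the smallest p. Promoters come from RefSeq (GRCm38.p6), which here held 3 of the 8 genes. Alternatives were the pseudocount, the filter, the scaling, each library left out, other cell filters, doublets kept, Ly6 genes kept in the clustering, classes from single transcripts and thinning. T cell receptor tables and exomes were not used here.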

Additional observations from a re-analysis of the deposited data

Results flagged for a closer look

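For 3 genes the difference between the lines was itself different in tumours and in cultures, by the limma test of the interaction over all genes. The line difference in tumours minus that in culture was -4.39 for Psca, which was lower in MOC1E1 tumours (28.0 to 33.1 against 462 to 604 TPM) and slightly higher in MOC1E1 cultures (13.8 to 18.8 against 12.1 to 13.5 TPM). It was -2.50 for Ly6d, with the same change of order between settings. It was 1.14 for Ly6k, which was lower in MOC1E1 in both settings and by more in culture. Tumours hold stromal and immune cells that cultures lack, the tables were made separately, and only the culture columns carry the letters plusifng. The part of these in the 3 values was not tested.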

How the results depend on the processing

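Over 35 bulk results for the genes and 357 alternatives, 323 kept direction and side of the threshold, 30 lost the call and 4 gained one, and none changed sign past the threshold. Calls lost were those of Ly6c1 and Ly6e in tumours, Psca in culture, Ly6a in MOC1 tumours against cultures and Ly6c1 in MOC1E1 tumours against cultures, most often when a library was left out. The cause was not tested. The number of genes called in tumours (2820) ranged from 1498 to 2617 when each library was left out in turn. Psca, Ly6k and Ly6d in tumours kept their calls in all alternatives. No paired analysis was possible because the columns of 3 of the 4 bulk groups carry numbers of their own, which the labels do not tie to their replicate numbers, and single-cell groups have 1 library each.

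Of 412 single-cell alternatives for the genes, 270 stayed within counting error of the value reported, 139 moved beyond it and 3 reversed. Ly6c1 in CD8 T-like cells of MOC1 with anti-CTLA-4 was 0.71 with Ly6 genes kept in the clustering, and Ly6c2 in Treg-like cells of the same comparison was -0.22 with doublets kept and -0.06 with Ly6 genes kept. The Ly6c2 ratio of -1.18 in MOC1 CD8 T-like cells with anti-PD-1 ran from -1.34 to -0.37. The number of genes past 2-fold in CD8 T-like cells moved as follows. In MOC1 with anti-PD-1 it was 567 with doublets kept and 573 with classes from single transcripts, against 890. In MOC1 with anti-CTLA-4 it was 2024 with Ly6 genes kept, against 1222. In MOC1E1 with anti-PD-1 it was 666 with doublets kept, 701 with stricter cell filters, 723 with Ly6 genes kept and 729 with single transcripts, against 1106, and with anti-CTLA-4 it was 1132, 1172, 1183 and 1109, against 1894. The unknown bulk depth and 1 library per single-cell group limit the precision.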

Other observations

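An unnamed cluster of MOC1E1, led by Gzmc, Klrb1b and Xcl1 and with a Cd3e UMI in 4.05% of its cells, held Ly6a at 773 CPM and Ly6c2 at 1218 CPM over all libraries. The NK-like cluster of the same model held 10.5 and 255 CPM. Of its 296 cells 245 came from the anti-CTLA-4 library. A cluster of MOC22 CD8 T-like cells led by the interferon-induced genes Ifit3, Ifit1 and Isg15 held Ly6a at 2620 CPM, Ly6c2 at 861 CPM and Ly6e at 2434 CPM. The MOC1 cluster led by Ifit1, Ifit3 and Rsad2 held them at 1342, 1123 and 2234 CPM. In both clusters the interferon-induced genes defined the cells, so the levels are a description.

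A cluster of MOC22 with Cd8a in 96.9% and Foxp3 in 95.2% of its cells (228 cells) held Ly6a at 1791 CPM and Ly6c2 at 198 CPM, and the Treg-like cluster of that model 1433 and 48.8 CPM. Clusters with Cd8a in most cells that were left unnamed because markers of another class led them were not part of the CD8 T-like class. They held Ly6c2 at 964 CPM in MOC1 (641 cells) and 843 CPM in MOC22 (379 cells), with Ly6a at 572 and 1141 CPM.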
